A study of Phelipanche ramosa with 8 samples.

Results

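MYB proteins are plant transcription factors, and 3 contigs of the *P. ramosa* transcriptome were examined because they carry the names of MYB factors of *Arabidopsis thaliana*: MYB78 (Pram_32493), MYB30 (Pram_25764) and MYB4 (Pram_44998). They were chosen by annotation, as the contigs with these names in the sheet of hormone-related contigs that accompanies the paper, and they are 3 of the 52543 contigs on the array. Each contig has a sense probe, printed on 2 spots of the array, and a partner probe for the opposite strand, printed on 1 spot. The sheet holds only contigs that the study itself had called as changed at 12 h or 24 h, in part on these same arrays, so that a change in them here is not independent evidence of its direction.

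MYB factors of the R2R3 type bind DNA through repeated MYB domains and either activate or repress their target genes. In *A. thaliana*, MYB78 is the closest relative of MYB108, a factor of jasmonate and stress responses, MYB30 promotes hypersensitive cell death and takes part in brassinosteroid responses, and MYB4 is a repressor of genes of phenylpropanoid synthesis. These roles come from *A. thaliana* and were not examined in *P. ramosa*. In the sheet, MYB78 stood under the response to abscisic acid and MYB4 under that to jasmonic acid, whereas MYB30 stood under jasmonic acid, auxin, ethylene and gibberellin.

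*Phelipanche ramosa* is a root parasite without chlorophyll whose radicle forms an adhesive organ, the haustorium, when it meets a host root. The arrays compared germinated seeds kept for 12 h in control medium (HEPES buffer with PPM, a biocide) with germinated seeds kept for 12 h in root exudates of the host *Brassica napus*. The purpose was to find genes that change before the haustorium becomes visible. All seeds were wild-type and 4 days old, and all had been conditioned and then germinated with the strigolactone analog GR24, so that the control seeds had met a germination stimulant as well. The sample labels describe the exudates as diluted by an equal volume, and the design text calls them crude.

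There were 4 control and 4 exudate samples on 4 arrays of 1 slide. Each array held 1 sample of each group in different dyes, with control RNA in Cy5 on arrays 1 and 2 and in Cy3 on arrays 3 and 4. The labels give 4 replicates grown independently, and the paper's methods give a smaller number of biological replicates used in a dye-switch design. The arrays were treated as replicates, so that the p-values measure the spread between arrays and overstate the evidence if arrays share seeds. RNA came from whole germinated seeds, in which fewer cells of a type and less RNA per cell cannot be told apart.

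How much an array can show depends on how far its spots exceed the background. The scanner software placed 60.4% to 69.3% of sense probes clearly above it in the control channels, and 37.5% to 65.9% in the exudate channels. The lowest share belonged to the exudate channel of array 3. The log2 ratios of exudate to control correlated between pairs of arrays with r from 0.39 to 0.67 over the 30641 sense probes tested, a description across probes that share arrays. The median log2 ratio of these probes was -0.14, so that most probes lay below equality with this scaling. Under other scalings the median lay between -0.41 and -0.02. The 6 contigs of the sheet annotated as seed storage cupins, proteins laid down in maturing seeds, were all above background in every control sample. Of the 6, 2 were above background in all 4 exudate samples, and the cupins Pram_11310 and Pram_12193 were so in 3 of 4.

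MYB78 was dim in control seeds and higher in exudate-treated seeds on every array. The median signal of its sense probe in the control channels was 256 and 240 in Cy5 (arrays 1 and 2) and 125 and 234 in Cy3 (arrays 3 and 4). These values were 1.62, 1.5, 2.66 and 4.94 times the local background, so that the probe stood little above it in 3 of the 4 control samples. In the exudate channels the median signal was 394, 546, 318 and 346 on arrays 1 to 4, or 7.58, 11.6, 2.08 and 2.20 times the background. Red and green channels have unlike backgrounds, and changes between the groups were therefore measured on normalized values. On array 4 the signal above background was nearly equal, 186 in the control channel and 189 in the exudate channel. The size of the rise there depended on the scaling. The log2 ratio was 0.65 after loess normalization and 0.29 when the ratios were only centered on their median.

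The normalized log2 signal of MYB78 was 7.14, 7.11, 6.88 and 7.49 in the control samples of arrays 1 to 4. In the exudate samples it was 8.56, 8.81, 8.72 and 8.14. All exudate samples lay above all control samples, with array 4 holding both the highest control and the lowest exudate value. The log2 ratios of exudate to control were 1.41, 1.70, 1.84 and 0.65, a mean of 1.40 ± 0.53 (SD, n = 4 arrays), which is a 2.64-fold increase. The limma standard error was 0.22, the 95% confidence interval ran from 0.92 to 1.88, and the limma adjusted p was 0.00320.

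A contig was counted as changed when the limma p, adjusted over all tested probes of its strand with the Benjamini-Hochberg method, was below 0.05 and the fold change was at least 1.5 or at most 0.75. By this rule 5.12% of all tested sense probes rose and 12.8% fell, 17.9% in all, which is 1569 higher and 3922 lower. This balance depended on the scaling and on array 1: it was 2363 higher and 2583 lower with loess fitted within each strand, 335 and 3673 with median centering, and 419 and 258 without array 1. MYB78, MYB30 and MYB4 were called in the same directions in each of these. MYB78 was among those that rose, and 279 of the sense probes that rose (17.8%) had a larger mean ratio. The mean log2 ratio of MYB78 was 1.56 on the arrays with control RNA in Cy5 and 1.24 on those with control RNA in Cy3. Without array 4, where it was smallest, the mean was 1.65, and the limma adjusted p was 0.00387.

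**Figure D1:**
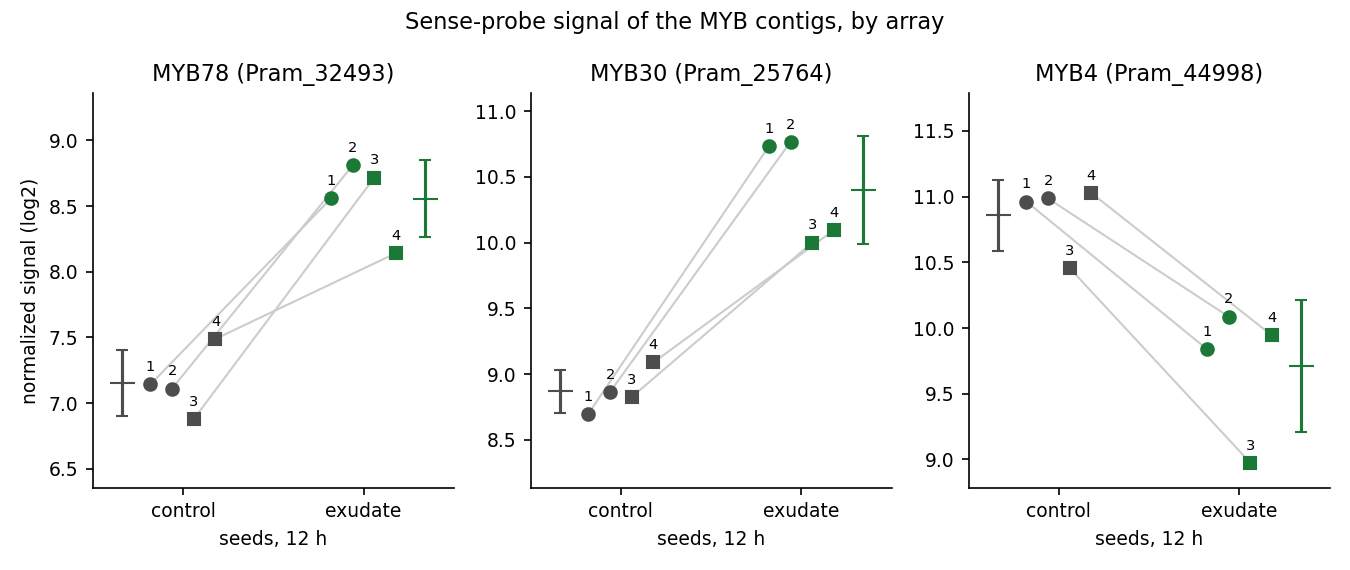
Normalized log2 signal of the sense probes of MYB78, MYB30 and MYB4 in control and exudate-treated germinated seeds at 12 h, with 1 numbered point per array, a gray line joining the samples of an array, circles for control RNA in Cy5, squares for control RNA in Cy3, and bars for mean ± SD (n = 4). The vertical axes span equal ranges and start at different values. The control and exudate points do not overlap for any of the contigs, and the lines rise for MYB78 and MYB30 and fall for MYB4.

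MYB30 was measured well above background in every sample and rose on every array. The median signal of its sense probe in the control samples of arrays 1 to 4 was 589, 647, 506 and 803, or 3.72, 4.25, 10.2 and 17.3 times the local background. In the exudate samples it was 1641, 2444, 475 and 1057, or 30.7, 47.0, 3.32 and 7.05 times the background. On arrays 1, 2 and 4 the exudate channel was the brighter one before any normalization. On array 3 it was not: the signal above background was 332 in the exudate channel and 457 in the control channel, and the normalized ratio there nevertheless lay above 0.

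After normalization the log2 signal of MYB30 was 8.70, 8.87, 8.83 and 9.09 in the control samples and 10.74, 10.77, 10.00 and 10.10 in the exudate samples of arrays 1 to 4. The groups did not overlap, and the control samples lay closer together (SD 0.16) than the exudate samples (SD 0.41). The log2 ratios were 2.04, 1.90, 1.18 and 1.01, with a mean of 1.53 ± 0.51 (SD, n = 4 arrays), a 2.89-fold increase. The limma standard error was 0.22, the 95% confidence interval 1.06 to 2.01, and the limma adjusted p 0.00185. Among the 1569 sense probes that rose, 221 (14.1%) had a larger mean ratio.

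The ratios of MYB30 separated by dye orientation. They averaged 1.97 with control RNA in Cy5 and 1.09 with control RNA in Cy3, and every ratio of the first pair of arrays exceeded those of the second. The dye term of a limma fit with orientation as covariate was 0.44 on the log2 scale, the distance of each orientation from the mean of both. Its limma adjusted p over all probes was 1.00, and 4 arrays give this test little power. The exudate effect in that fit had a limma adjusted p of 0.00149. Each pair of arrays had the same direction.

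MYB4 was bright in control seeds and fell on every array. The median signal of its sense probe was 2459, 2567, 1554 and 3135 in the control samples of arrays 1 to 4, which was 15.7, 16.7, 31.7 and 66.7 times the local background. In the exudate samples it was 877, 1562, 270 and 984, or 15.9, 30.9, 1.87 and 6.51 times the background. The exudate value of array 3 stood out as low, in the channel that also had the smallest share of sense probes above background.

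The normalized log2 signal of MYB4 was 10.96, 10.99, 10.46 and 11.03 in the control samples and 9.84, 10.09, 8.98 and 9.94 in the exudate samples of arrays 1 to 4. No exudate sample reached a control sample, and array 3 was the lowest of both groups. The log2 ratios were -1.12, -0.90, -1.48 and -1.08, with a mean of -1.15 ± 0.24 (SD, n = 4 arrays), or 0.452 of the control signal. The limma standard error was 0.19, the 95% confidence interval -1.55 to -0.74, and the limma adjusted p 0.00383. Without array 3 the mean was -1.04, with a limma adjusted p of 0.0109.

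The means of MYB4 by orientation were -1.01 with control RNA in Cy5 and -1.28 with control RNA in Cy3. Among the 3922 sense probes that fell, 535 (13.6%) fell further. The seed storage cupins moved in the same direction as MYB4. All 6 of the 6 were called lower, against 12.8% of all tested sense probes, the mean of their log2 ratios ran from -2.59 to -1.08 over the arrays, and none was below background on all arrays. These cupins come from the same sheet of contigs called by the study. Only 2 of the 6 were above background in all exudate samples, and the others entered the test through the control samples, where they are bright. This count is therefore not independent evidence. Their summed normalized signal was 8898 to 17199 in control and 2425 to 5707 in exudate samples, and the part of storage tissue in the MYB4 value was not tested.

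Control and exudate signals that do not overlap were no rare pattern on these arrays: 19.7% of the tested sense probes had it in either direction. All 3 contigs had it. In control seeds the sense probe of MYB78 was between 1.5 and 4.94 times its local background, that of MYB30 between 3.72 and 17.3 times, and that of MYB4 between 15.7 and 66.7 times. Brightness depends on the probe as well as on the transcript, and these values were therefore not ranked as transcript levels.

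**Figure D2:**
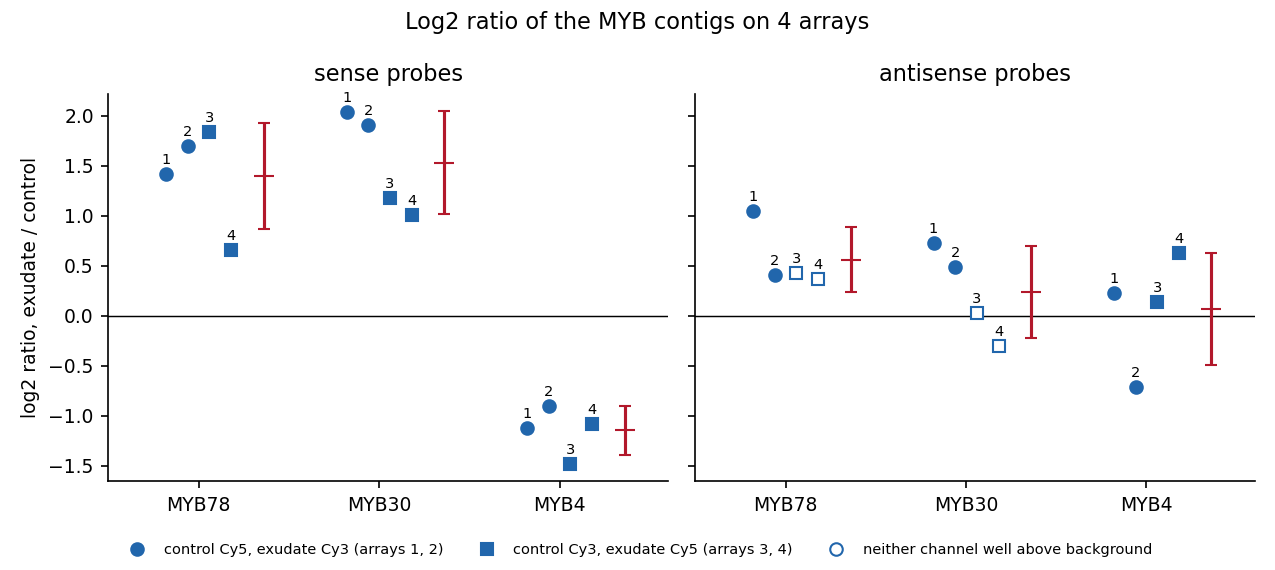
Log2 ratio of exudate to control at 12 h for the sense and antisense probes of MYB78, MYB30 and MYB4, with 1 numbered point per array, open symbols where neither channel was well above background, circles and squares for control RNA in Cy5 and Cy3, and bars for mean ± SD (n = 4 arrays). The sense ratios of MYB78 (0.65 to 1.84) and MYB30 (1.01 to 2.04) lie above 0 and those of MYB4 (-1.48 to -0.90) below it, while the antisense ratios of MYB30 and MYB4 lie on both sides of 0.

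The ratios of MYB78 and MYB30 were then compared array by array. MYB30 exceeded MYB78 by 0.62, 0.20 and 0.35 on arrays 1, 2 and 4 and was lower by 0.66 on array 3. The mean difference was 0.13 ± 0.56 (SD, n = 4 arrays), with a two-sided exact sign-flip permutation p of 0.75, where the smallest p that 4 arrays allow is about 0.13. Their responses could thus not be ranked. Against MYB4, the log2 ratio was higher by 2.68 ± 0.44 for MYB30 and by 2.55 ± 0.65 for MYB78, in 4 of 4 arrays each. These differences are given as a description.

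The repeat spots of each sense probe gave similar ratios. The 2 spots differed by 0.03 to 0.19 on the log2 scale for MYB30 and by 0.02 to 0.17 for MYB4. For MYB78, whose probe stood little above its background, they differed by 0.18 to 0.58. None of these spots was saturated or marked as an outlier.

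The antisense probes were next examined for change on the opposite strand. MYB78 and MYB30 had almost no antisense signal in control seeds: neither probe was well above background in any control sample, and both were so in 2 of 4 exudate samples, those of arrays 1 and 2, where the exudate RNA carried Cy3. Both probes thus fell short of the brightness needed for the test. The antisense log2 ratios of MYB78 were 1.05, 0.41, 0.43 and 0.37, a mean of 0.56 ± 0.32 (SD, n = 4 arrays).

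The antisense log2 ratios of MYB30 were 0.73, 0.49, 0.03 and -0.30, with a mean of 0.23 ± 0.46. Its control and exudate samples overlapped, whereas those of the MYB78 antisense probe did not (6.22 to 6.38 in control and 6.72 to 7.26 in exudate samples). How common such a gap is among antisense probes was not counted, and the MYB78 antisense probe was well above background in no control sample.

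MYB4 was the contig whose antisense probe was above background in every sample. Its log2 ratios of 0.23, -0.71, 0.13 and 0.63 averaged 0.07 ± 0.56 (SD, n = 4 arrays). The limma 95% confidence interval ran from -0.48 to 0.62 and the limma adjusted p was 0.888, so that no change was detected, and the interval holds shifts in both directions. For comparison, 8.59% of the 16075 antisense probes tested were called, and the median log2 ratio of these probes on arrays 1 to 4 was 0.33, 0.26, 0.59 and -0.04.

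The sense ratio differed from the antisense ratio of the same contig in the same direction on every array. It was higher by 1.31, 1.42, 1.15 and 1.31 for MYB30 and by 0.37, 1.29, 1.41 and 0.29 for MYB78. It was lower by 1.35, 0.19, 1.61 and 1.71 for MYB4. The difference varied least for MYB30 (mean 1.30 ± 0.11), the contig whose sense and antisense ratios were both lower on arrays 3 and 4 than on arrays 1 and 2. The medians of all tested probes differed between the strands as well. On arrays 1 to 4 those of sense probes were -0.21, -0.09, -0.29 and -0.02. Those of antisense probes were 0.33, 0.26, 0.59 and -0.04. The part of this offset in the differences of the MYB contigs was not tested. Since the antisense probes of MYB78 and MYB30 were also near background, the differences of the MYB contigs are a description of the probes.

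The other MYB or MYB-like contigs of the hormone sheet were MYB108 (Pram_07555), which in *A. thaliana* is the close relative of MYB78, and a contig annotated as a duplicated homeodomain-like protein (Pram_20839). The sense probe of MYB108 was above background in 1 of 4 control and 2 of 4 exudate samples and was not tested. Its log2 ratios were 0.66, 0.92, 0.29 and -0.03, a mean of 0.46 ± 0.42 (SD, n = 4 arrays). Those of the homeodomain-like contig were 1.22, 0.86, -0.44 and 0.70, a mean of 0.58 ± 0.72, and it was not tested either. Neither of them had the same sign on all 4 arrays, and both were too dim for the test. How common the same sign on every array is among sense probes was not counted. The contrast with MYB78, MYB30 and MYB4 is therefore a description.

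**Figure D3:**
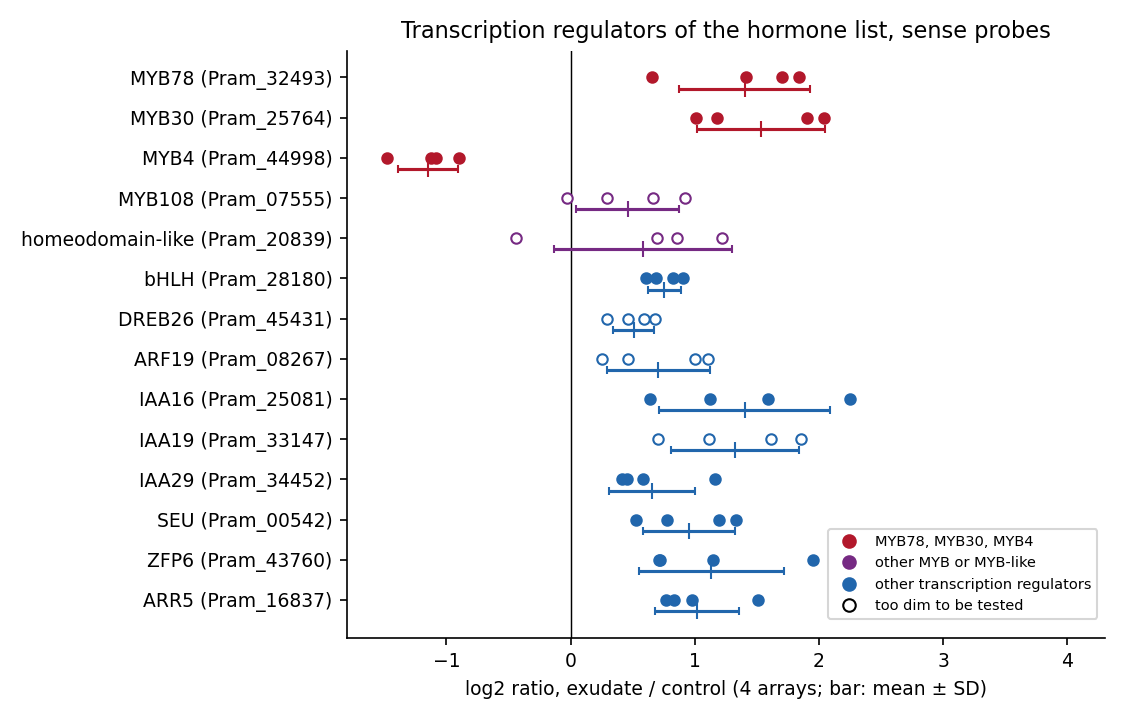
Log2 ratio of exudate to control for the transcription regulators of the hormone sheet, with 1 point per array, bars for mean ± SD (n = 4 arrays) and open circles for contigs too dim to be tested. MYB4 is the contig with all ratios below 0, and MYB78 and MYB30 lie to the right with IAA16 and IAA19.

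Among the 9 other transcription regulators of the sheet, 6 were bright enough for the test and all 6 rose, with none lower. Over all tested sense probes 5.12% rose and 12.8% fell. The median log2 ratio of the 6 was 0.99, against -0.14 over all tested sense probes. As for the MYB contigs, the sheet had been drawn from the study's own calls, so that this count is not independent evidence. The 6 were the auxin response repressors IAA16 (Pram_25081, log2 ratio 1.40) and IAA29 (Pram_34452, 0.65), the zinc finger protein ZFP6 (Pram_43760, 1.13), the cytokinin response regulator ARR5 (Pram_16837, 1.02), the transcriptional co-repressor SEU (Pram_00542, 0.96) and a bHLH protein (Pram_28180, 0.75). Their limma adjusted p-values ranged from 0.00544 for IAA16 to 0.0398 for IAA29.

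The mean ratios of MYB78 (1.40) and MYB30 (1.53) thus lay at or above the upper end of these regulators, and MYB4 was the one transcription regulator among those tested that fell. The 3 regulators too dim for the test were IAA19 (Pram_33147, log2 ratio 1.32), the auxin response factor ARF19 (Pram_08267, 0.71) and the AP2/ERF protein DREB26 (Pram_45431, 0.51). The count of 6 depended on array 1 and on the scaling, and median centering also left 2. Without array 1, 2 of the 6 regulators were called and MYB78, MYB30 and MYB4 all were, with limma adjusted p-values of 0.0264, 0.0194 and 0.0293. Calls among all sense probes fell from 5491 to 677 in the same setting, so that the drop was not particular to the regulators.

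The hormone lists to which the MYB contigs belong were mixed in direction. They share contigs, and all come from the study's calls, so that their counts are not independent evidence and stand beside the 5.12% higher and 12.8% lower of all tested sense probes. On the abscisic acid list, which holds MYB78, 3 of 18 other tested contigs rose and 5 fell, with a median log2 ratio of 0.36. Those that fell were the CRA1 storage cupins (4 contigs, -2.23 to -1.92) and RD22 (Pram_03507, -0.71), a gene of dehydration responses in *A. thaliana*. Those that rose were a receptor-like kinase (Pram_40479, 1.44), an F-box protein (Pram_36315, 1.37) and NTF2 (Pram_02271, 0.65), named for nuclear transport. RD22 and the cupins Pram_11310 and Pram_12193 were above background in 3 of 4 exudate samples and entered the test through the control samples. The balance depended on the processing. With both channels required to be above background on all arrays, 4 rose and 2 fell. With loess fitted within each strand, 6 rose and 5 fell.

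On the jasmonic acid list, which holds MYB30 and MYB4, 5 of the 8 other contigs were tested. The F-box protein (Pram_36315, 1.37) rose and JAR1 (Pram_17697, -2.01), whose *A. thaliana* namesake conjugates jasmonic acid to isoleucine, fell. The median of the 5 was 0.24. MYB30 and MYB4 thus moved in opposite directions within a list whose other called contigs also did. JAR1 was above background in 3 of 4 exudate samples and entered the test through the control samples. With both channels required to be above background on all arrays, 1 contig of the list was called higher and 0 lower.

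MYB30 also stood on the auxin, ethylene and gibberellin lists. Of 13 other tested auxin contigs, 9 rose, including the quinone reductases FQR1 (3 contigs, 2.46 to 2.61), and 2 fell, JAR1 and a CAND1 contig (Pram_19010, -1.03). Another CAND1 contig (Pram_00078, 0.76) was among those that rose. All tested sense probes had 5.12% higher and 12.8% lower. Of 4 tested ethylene contigs, the bHLH protein and TAR2 (Pram_32122, 2.00), which is named for auxin synthesis, rose and none fell. The 1 tested gibberellin contig, GASA4 (Pram_43858, 0.25), was not called. The median log2 ratio was 0.76 on the auxin list and 0.57 on the ethylene list.

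The pattern over the arrays was also compared, as the root mean square difference between the 4 log2 ratios of a MYB contig and those of each of 61 other tested contigs of the sheet. IAA16 was the contig most like MYB78, with a difference of 0.26, followed by PMSR4 (Pram_41405, 0.47), where the median over all 61 was 1.17. The ratios of IAA16 were 1.12, 1.59, 2.25 and 0.64, highest on array 3 and lowest on array 4 as for MYB78. The likeness rests on 4 arrays, on which all contigs share the same RNA samples and dyes.

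For MYB30 the nearest contigs were the F-box protein Pram_36315 (0.37) and MYB78 (0.50), against a median of 1.24. For MYB4 they were the storage cupin PAP85 (Pram_31475, 0.32), with ratios of -1.28, -0.61, -1.22 and -1.56, and PKT3 (Pram_46897, 0.32), a thiolase of fatty acid breakdown, against a median of 1.65. This measure counts the size of the ratios as well as their pattern, so that the nearest contigs necessarily share the direction of the MYB contig.

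The table of processed log2 values that accompanies the arrays gave the same directions with less separation. The values of MYB78 ran from 6.94 to 7.82 in control and from 8.08 to 9.01 in exudate samples and did not overlap, as for 10.5% of the tested sense probes in that table. Those of MYB30 ran from 8.35 to 9.55 and from 9.32 to 11.40, and those of MYB4 from 10.09 to 11.52 and from 8.72 to 10.59, so that both overlapped. The mean differences were 1.02 for MYB78, 1.44 for MYB30 and -1.10 for MYB4.

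In that table the control columns numbered 1 to 4 followed the scanner signal of arrays 1 to 4 (r from 0.990 to 0.994 over all sense probes). The exudate columns with these numbers instead followed arrays 3, 4, 1 and 2, in that order (r from 0.970 to 0.995). With columns paired by number, the differences of MYB4 were -2.32, -1.12, -0.12 and -0.85, and none of the 3 contigs was called (limma adjusted p of 0.324 for MYB78, 0.324 for MYB30 and 0.341 for MYB4). With each exudate column paired to the control of the array it followed, the SD of the differences fell from 0.62 to 0.23 for MYB78, from 1.02 to 0.52 for MYB30 and from 0.92 to 0.19 for MYB4. All 3 were then called, with limma adjusted p of 0.00852, 0.00728 and 0.00602. That pairing was chosen after the data were seen.

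**Figure D4:**
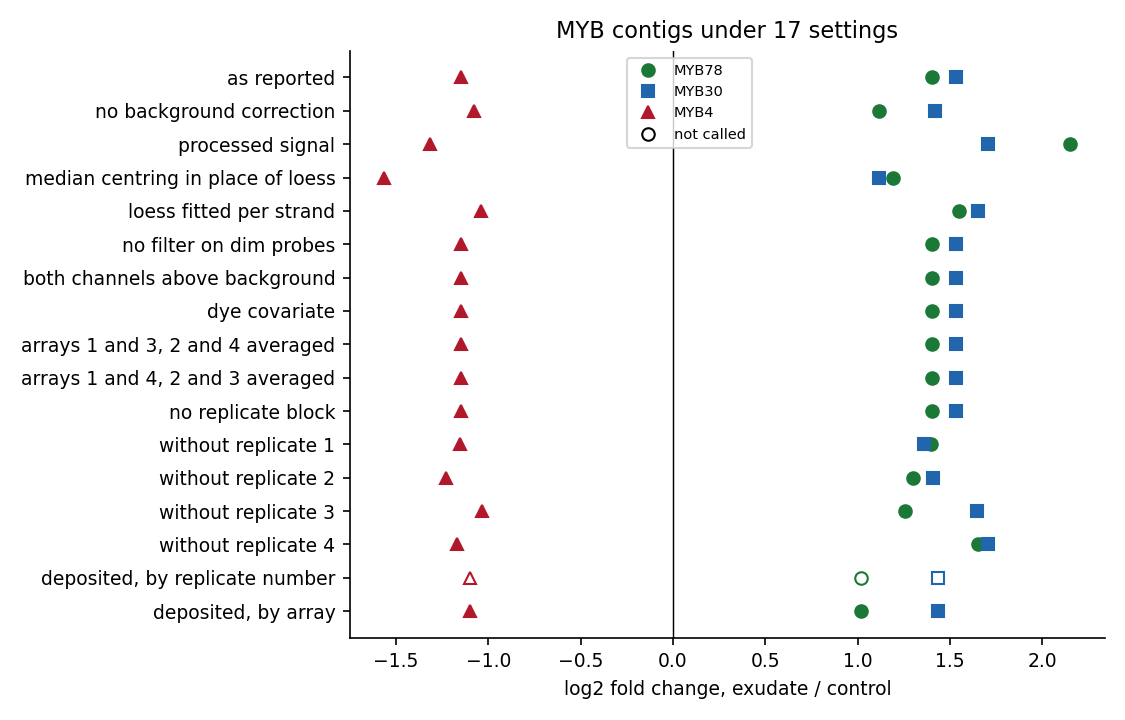
Mean log2 ratio of exudate to control of MYB78, MYB30 and MYB4 under each processing setting, with filled points where the contig was called and open points where it was not. The means stay on their side of 0 throughout, between 1.02 and 2.15 for MYB78, 1.12 and 1.71 for MYB30, and -1.56 and -1.04 for MYB4.

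The directions of the 3 sense probes held under all 16 alternatives of processing, and each was called in 15 of them, the exception being the processed table paired by number. The alternatives of filter, dye, pairing within an array and averaging of dye swaps leave the mean itself unchanged. In those the direction could not differ, and only the p-value was tried. Both pairings of the processed table likewise share the same mean. When 1 array at a time was left out, the mean ran from 1.26 to 1.65 for MYB78, from 1.36 to 1.71 for MYB30 and from -1.23 to -1.04 for MYB4, and all 3 contigs were called each time. Array 3 was sensitive to the scaling. There the ratio of MYB30 was 1.18 after loess normalization and 0.11 when the ratios were only centered on their median, and that of MYB4 moved from -1.48 to -2.58. The mean of MYB30 was then 1.12 (limma adjusted p = 0.0451) and that of MYB4 -1.56 (limma adjusted p = 0.0145).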

How the data were processed

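Germinated seeds of *P. ramosa* were compared on 4 two-color Agilent arrays, with groups, replicate numbers and dyes taken from the sample labels. The scanner files that the authors deposited (Feature Extraction 11.5.1.1) hold the median intensity, the background around it and a processed intensity of each spot, with flags for dim, saturated and outlying spots. A further deposited table holds log2 values of sense probes only, and how it was scaled is not given in the sources used here. Each array's output was deposited for both of its samples and was read once.

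Intensities were background-corrected (normexp, offset 50) and loess-normalized within each array (span 0.3, 4 iterations) over all probe spots, and spots of a probe were averaged. Ratios were turned to exudate over control. Single-channel log2 signals were scaled between arrays with the Aquantile method. Only probes that the software marked as well above background throughout 1 group or both entered the test, made with limma 3.58.1 in R 4.3.3, and p-values were adjusted over the 30641 sense and, separately, the 16075 antisense probes. The code was tested on simulated data. Counting intervals do not apply to arrays, and 4 arrays limit the precision.

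The MYB contigs, lists and tests were chosen with earlier results of these data known. Named were the MYB contigs, all other transcription regulators of the hormone sheet, and for each MYB contig the 2 tested contigs of the sheet with the most similar ratios. Contigs of the hormone lists were named after their values were seen, and for the auxin list only some of the called contigs were named. Samples of the same number were hybridized together, which is the ground for pairing them, and the ratio within an array is the paired value. Same-numbered samples deviated from their group means with r of 0.22, 0.24, 0.75 and -0.24, and the highest r with a sample of another array was 0.30, 0.66, -0.32 and 0.19. Alternatives concerned background correction, signal, scaling, filter, dye, pairing, averaging of dye swaps, each array left out and the deposited table. The arrays of 24 h and all sequences are not analysed here.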

Additional observations from a re-analysis of the deposited data

Results flagged for a closer look

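In 4 of 32 sets of 4 values examined for the MYB contigs and the other regulators, 1 array lay far from the other 3, by the ratio of its gap to the whole range (Dixon's criterion at its 95% critical value). Chance alone marks about 5% of such sets, and sets that share arrays are not independent. The normalized log2 signal of the MYB4 sense probe was 10.46 in the control sample of array 3, against 10.96 to 11.03 in the other control samples. The antisense log2 ratio of MYB78 was 1.05 on array 1, against 0.37 to 0.43 on the others. The antisense log2 signal of MYB78 in the exudate sample of the same array was 7.26, against 6.72 to 6.74, and this signal enters the ratio just given. The antisense log2 signal of MYB4 in the control sample of array 2 was 8.03, against 7.42 to 7.51, and array 2 was the one with a negative antisense ratio of MYB4. Each antisense value comes from 1 spot, and the part of a single spot in it was not tested.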

How the results depend on the processing

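The directions of the MYB78, MYB30 and MYB4 sense probes held in all 16 alternatives. Those of filter, dye, pairing within an array and averaging of dye swaps leave the mean unchanged, so that the direction could not differ there. With the deposited values paired by column number their means were 1.02, 1.44 and -1.10, not called, and no sense probe was called (3854 of 30641 at an unadjusted p below 0.05, and 3 of 3 MYB contigs), nor any contig of the abscisic acid, jasmonic acid, auxin, ethylene or regulator lists (0 of each, against 6, 2, 9, 2 and 5 at an unadjusted p below 0.05). With no replicate block, the MYB contigs stayed called (limma adjusted p 0.00877, 0.00819 and 0.0326), while sense calls fell to 2359, antisense calls to 512 and ethylene calls to 1. MYB78 rose to 2.15 with the scanner software's processed signal. Leaving out 1 array gave 677 (without array 1) to 5536 sense calls, 249 to 1706 antisense calls, 2 to 5 regulators, 5 to 9 auxin and 1 to 2 ethylene contigs. The difference of MYB30 and MYB78 reversed to -0.45 with processed signal and -0.073 with median centering, and ran from -0.034 to 0.39 without 1 array.

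The antisense mean of MYB4 became -0.10 with median centering and -0.16 with loess per strand, and ran from -0.12 (without array 4) to 0.33. Processed signal moved the antisense means of MYB78 to 1.80 and of MYB30 to 0.80. Sense calls, 5491 in the analysis reported, were 3548 without background correction, 2266 without the filter and 3534 with a dye covariate. Antisense calls, 1381 there, were 704, 525 and 822 in the same order, 239 with median centering, 380 with loess per strand and 3314 with arrays 1 and 3 and arrays 2 and 4 averaged. Median centering left 2 regulators, 6 auxin and 1 ethylene contig, processed signal 1 ethylene contig, and the filter on both channels 1 jasmonic acid contig. Scaling moved the median of all tested sense probes from -0.14 to between -0.41 and -0.02. The causes were not tested. The signal of MYB78 in control samples, and of both dim antisense probes, lay close to background and limits their fold changes.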
